A study of Rattus norvegicus with 6 samples.

Results

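Transcripts of 6 inflammatory genes were followed in rat vascular smooth muscle cells: the cytokine Il6 (ENSRNOG00000010278), the chemokines Ccl2 (ENSRNOG00000007159) and Cxcl1 (ENSRNOG00000002802), the prostaglandin synthase Ptgs2 (ENSRNOG00000002525), and the adhesion molecules Icam1 (ENSRNOG00000020679) and Vcam1 (ENSRNOG00000014333). They were chosen by Ensembl identifier, as 6 of the 32883 identifiers in the count table, and all 6 were found. Polyadenylated RNA had been sequenced from 2 groups of 3 samples. In sg-MIAT, labelled as MIAT overexpression, a CRISPR-dCas9 system was aimed at the long non-coding RNA MIAT to raise its transcription. In sg-U6, labelled as wild type, the same system carried a negative control guide, so both groups held dCas9 and a guide. The labels give the tissue as vessel and do not state which activator was used, whether the cells were primary cells or a line, or whether each numbered sample is a culture or animal of its own. The p-values therefore measure only the spread among these libraries, which may be technical.

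Inflammatory activation of smooth muscle is a known part of vein graft disease and atherosclerosis. Signals such as interleukin-1 and tumour necrosis factor release NF-κB into the nucleus, where it binds κB sites near the start of its target genes, among them all 6 described here. IL-6 acts on neighbouring cells through the gp130 receptor chain, CCL2 draws monocytes, and CXCL1 draws neutrophils. PTGS2, also called COX-2, makes the precursor of prostaglandins and is induced quickly from a low level. ICAM1 and VCAM1 stand on the cell surface and hold leukocytes by their integrins.

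Total counts per sample ran from 13128977 to 18257865, so the lowest count of any of the 6 genes, 101 for Ptgs2 in sg-MIAT 1, had an exact Poisson 95% interval of 82.3 to 122.7, which covers counting error only. Levels are given as CPM, counts per 1000000 counts of the library, after TMM correction for composition. They compare samples for 1 gene and not genes with each other, since no gene length enters. The libraries sg-MIAT 1 and sg-U6 1 stood apart from the other 4 on the first principal component of all genes, at -59.9 and -69.7 against 11.1 to 73.9. Those 4 were themselves spread, with sg-U6 3 at 73.9 and the rest at 11.1 to 30.9. Fitted fold changes of the 6 genes, and some ranges, sample orders and distances, are also given without both sg-MIAT 1 and sg-U6 1. Miat, smooth muscle markers and markers of endothelium, leukocytes and fibroblasts were not analysed here, since the reference table used here pairs 0 of the identifiers with a name. The guide labels and the cell type were therefore not checked against the data. In such bulk samples, fewer cells of a type and less RNA per cell cannot be told apart.

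Promoters were available for 5 of the 6 genes, all but Ccl2, in RefSeq's GRCr8 assembly, which differs from the build of the counts, Rnor_6.0. The 250 bases before each transcription start were searched on both strands for 4 motifs, chosen after the sequences had been seen. These were the κB consensus GGGRNWYYCC, the cAMP response element TGACGTCA, the TATA motif TATAAA and the E-box CACGTG. In the consensus, R is A or G, W is A or T, Y is C or T and N is any base. A κB match was present in 3 of the 5, Il6, Cxcl1 and Vcam1, and in 3.54% of 33469 rat promoters of the same length. These sequences are shown because Vcam1 was the single gene of the 6 whose groups did not overlap, Cxcl1 and Ptgs2 had the widest range over samples, and Il6 peaked in the same sample as they did. Capitals mark the motif matches, 5′ to 3′.
Il6: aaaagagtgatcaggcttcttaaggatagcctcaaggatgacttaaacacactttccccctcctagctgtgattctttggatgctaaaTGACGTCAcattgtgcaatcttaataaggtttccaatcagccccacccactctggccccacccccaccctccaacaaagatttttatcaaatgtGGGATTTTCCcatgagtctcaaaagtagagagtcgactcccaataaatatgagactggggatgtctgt
Cxcl1: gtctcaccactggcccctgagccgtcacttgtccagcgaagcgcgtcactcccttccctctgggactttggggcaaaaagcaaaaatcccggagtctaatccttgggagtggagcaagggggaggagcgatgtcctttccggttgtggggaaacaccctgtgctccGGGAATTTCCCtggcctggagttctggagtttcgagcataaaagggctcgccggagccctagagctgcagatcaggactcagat
Vcam1: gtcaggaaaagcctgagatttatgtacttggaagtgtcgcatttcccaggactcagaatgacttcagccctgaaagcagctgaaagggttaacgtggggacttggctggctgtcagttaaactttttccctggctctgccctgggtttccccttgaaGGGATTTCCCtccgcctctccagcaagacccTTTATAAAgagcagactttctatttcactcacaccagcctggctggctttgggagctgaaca
Ptgs2: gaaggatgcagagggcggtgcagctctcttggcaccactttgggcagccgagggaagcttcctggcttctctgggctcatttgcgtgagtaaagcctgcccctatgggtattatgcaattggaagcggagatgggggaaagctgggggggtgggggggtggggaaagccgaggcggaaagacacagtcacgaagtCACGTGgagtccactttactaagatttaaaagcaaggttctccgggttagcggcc
The Il6 sequence lies at chr4:5894576-5894825, minus strand, the Cxcl1 sequence at chr14:17479322-17479571, minus strand, the Vcam1 sequence at chr2:206742784-206743033, minus strand, and the Ptgs2 sequence at chr13:64713813-64714062, plus strand.

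In Il6 the κB match GGGATTTTCC ended 59 bases before the start, and the cAMP response element, present in 1.59% of rat promoters, ended 155 bases before it. In Cxcl1 the matches on opposite strands overlapped, spanning bases 84 to 74 before the start. In Vcam1 the κB match GGGATTTCCC, which fits the consensus read on either strand, covered bases 93 to 84 before the start. It lay upstream of a TATA motif on each strand that overlapped between bases 62 and 55. Icam1 held the TATA motif, which 12.9% of rat promoters hold, and Ptgs2 held the E-box, found in 5.59%. Neither Icam1 nor Ptgs2 held a κB match in these bases, which says only that the letters GGGRNWYYCC are not in this window. The Icam1 bases, not printed here, hold TGGAAATTCC, which departs from the consensus only in its first letter. Sequences that depart from the consensus were not searched for. A match is a description of the sequence and not a site of binding.

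The question put to the counts was whether the guide against MIAT changed the level of the 6 genes relative to the control guide. Vcam1 was higher in every sg-MIAT sample than in any sg-U6 sample, by a fitted 3.35-fold. The other 5 genes had lower fitted levels in sg-MIAT, by 1.07-fold for Icam1 to 4.48-fold for Ptgs2, but their groups overlapped. With p-values adjusted by Benjamini-Hochberg over all genes, edgeR's quasi-likelihood test called 0 of the 6 at an adjusted p under 0.05, where it called 0% of the 12044 tested genes. At an unadjusted p under 0.05, edgeR placed 1 of the 6, Vcam1, where 3.96% of all tested genes were placed. limma-voom also called 0 of the 6 and 0% of genes, and at an unadjusted p under 0.05 it too placed Vcam1, 1 of the 6, where 3.48% of genes were placed. All 6 had passed the filter on low counts.

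Vcam1, the ligand of the integrin VLA-4 on monocytes and lymphocytes, reached 90.5, 148.0 and 203.5 CPM in sg-MIAT 1, 2 and 3 and 36.1, 33.2 and 62.8 CPM in sg-U6 1, 2 and 3. The lowest sg-MIAT sample lay above the highest sg-U6 sample, so the groups did not overlap, as was the case for 9.04% of the 12044 genes (4.65% with sg-MIAT higher). Group means were 147.3 ± 56.5 CPM in sg-MIAT and 44.0 ± 16.3 CPM in sg-U6 (SD, n = 3 each). The edgeR log2 fold change was 1.74 ± 0.38 (SE), with an unadjusted p of 0.00306 and an adjusted p of 0.9995 over all genes tested with edgeR. By that unadjusted p it ranked 27 among the tested genes. An exact two-sided permutation test of the 6 log2 values gave p = 0.1, the smallest that 3 samples against 3 allow.

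The call of Vcam1 depended on the tool. DESeq2, which the submitters' processing notes name, gave a log2 fold change of 1.74 ± 0.41 (SE) and an adjusted p of 0.0126, among 60 genes called (0.438% of those it tested). With the replicate number as a block, DESeq2 gave Vcam1 an adjusted p of 2.718e-09 and called 0.998% of genes. Its unadjusted p was the second smallest of that fit. The block takes the numbers as pairs, which the labels do not state. Deviations of sg-MIAT 2 correlated more with those of sg-U6 3 than of sg-U6 2 (0.630 against 0.126). The edgeR fit with the replicate block gave an adjusted p of 0.374 and a log2 fold change of 1.73 ± 0.20 (SE). The DESeq2 call of Vcam1 without the block was lost when sg-MIAT 2, sg-MIAT 3 or sg-U6 2 was left out, with adjusted DESeq2 p-values of 0.232, 0.0793 and 0.305. Without both samples numbered 1, the edgeR log2 fold change was 1.88 and the adjusted DESeq2 p was 1.622e-05.

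**Figure D1:**
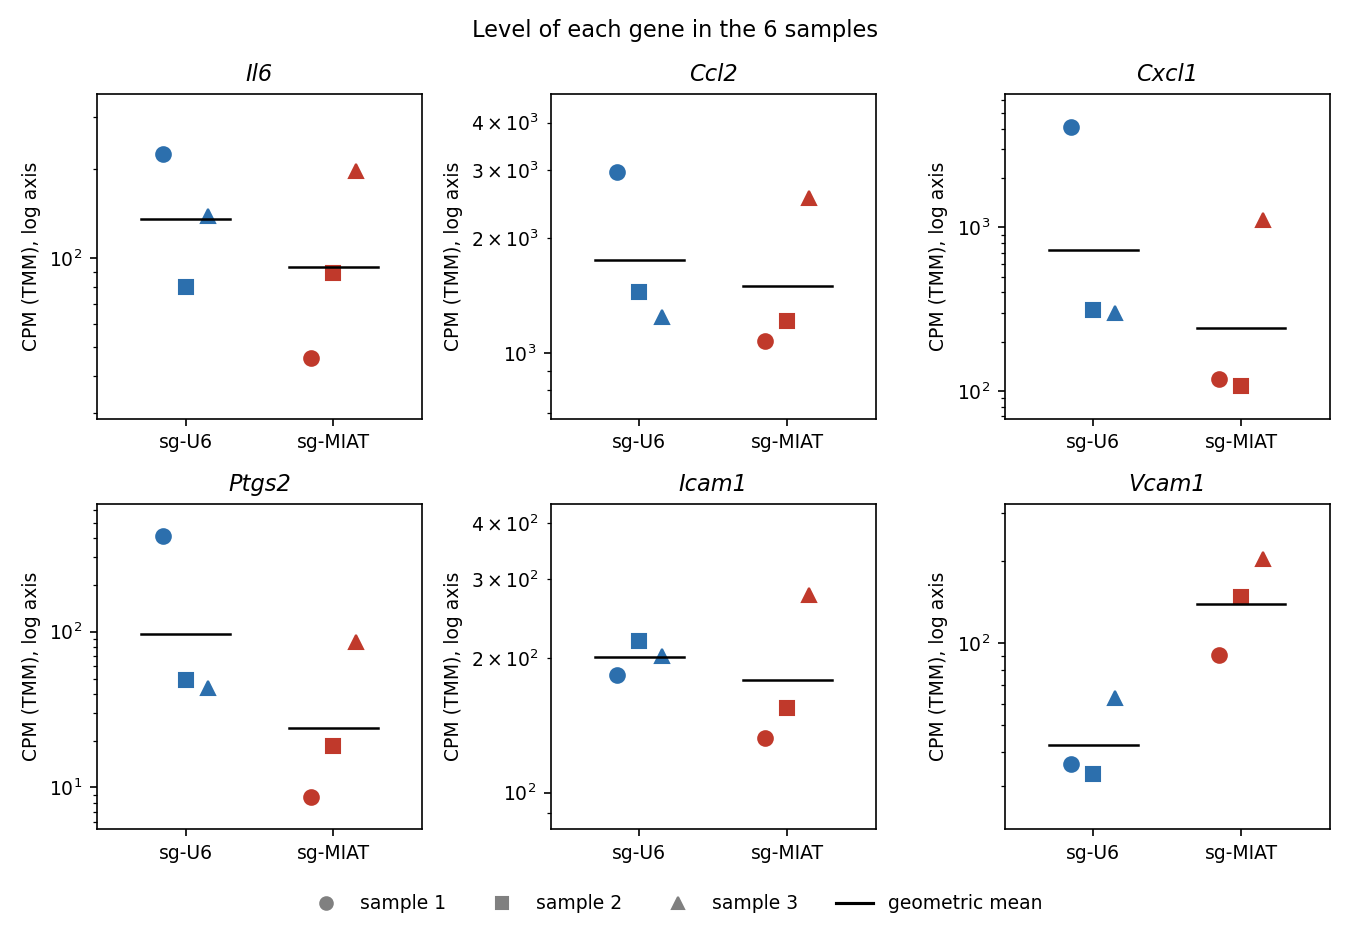
Level of each gene in the 6 samples, as CPM after TMM scaling on a log axis with its own range per panel; circles, squares and triangles are samples 1, 2 and 3 of each group and bars are geometric means. The 3 sg-MIAT samples of Vcam1 sit at 90.5 CPM or above and the 3 sg-U6 samples at 62.8 CPM or below, while in the other 5 panels the groups overlap.

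Icam1, the ligand of the leukocyte integrin LFA-1, showed no such separation. It stood at 132.6, 154.3 and 276.3 CPM in sg-MIAT 1, 2 and 3 and at 183.1, 217.8 and 201.5 CPM in sg-U6 1, 2 and 3. The control samples lay close together, between the extremes of the sg-MIAT samples. The edgeR log2 fold change was -0.10 ± 0.29 (SE), and the adjusted edgeR p was 0.9995. Its sign turned when sg-MIAT 1 or sg-MIAT 2 was left out, to 0.092 and 0.034 on the log2 scale. The pair of adhesion molecules thus had fitted differences of -0.10 and 1.74, a gap between genes that was not tested.

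Cxcl1 and Ptgs2 varied more between samples than nearly all other genes. Cxcl1, a ligand of the neutrophil receptor CXCR2, reached 4118 CPM in sg-U6 1 but 312.7 and 297.5 CPM in sg-U6 2 and 3. Its levels in sg-MIAT 1, 2 and 3 were 118.0, 107.6 and 1106 CPM. The highest sample was thus a control and the second highest carried the MIAT guide, while the lowest 2 carried the MIAT guide. The highest and lowest samples differed 38.3-fold, and the within-group SD of log2 CPM, 2.04, was above that of 99.4% of tested genes, whose median was 0.37. Without both samples numbered 1, the range of Cxcl1 was 10.2-fold and its within-group SD, 1.68, was above that of 99.4% of genes. Group means were 443.9 ± 573.4 CPM in sg-MIAT and 1576 ± 2201 CPM in sg-U6 (SD, n = 3 each), so each SD was larger than its mean. The edgeR log2 fold change was -1.83 ± 1.38 (SE) at an adjusted edgeR p of 0.9995.

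Ptgs2, the inducible cyclooxygenase, followed nearly the same profile. It stood at 414.0 CPM in sg-U6 1, at 48.8 and 43.4 CPM in sg-U6 2 and 3, and at 8.63, 18.5 and 85.5 CPM in sg-MIAT 1, 2 and 3. The sg-MIAT 3 sample exceeded 2 of the 3 controls, and the other sg-MIAT samples lay below every control. The range from lowest to highest was 48.0-fold, and the within-group SD of log2 CPM of 1.75 was above that of 98.3% of tested genes. Without both samples numbered 1, its range was 4.60-fold and its within-group SD, 1.10, was above that of 97.7% of genes. The edgeR log2 fold change was -2.16 ± 1.19 (SE), with an unadjusted p of 0.116 and an adjusted p of 0.9995 from edgeR. DESeq2 gave neither Cxcl1 nor Ptgs2 a p-value, because its filter on Cook's distance, a measure of how far 1 sample drives a fit, set them aside. With that filter off, their adjusted DESeq2 p-values were 0.9999 and 0.778.

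Ccl2, which recruits monocytes through the receptor CCR2, ran from 1078 to 2977 CPM, a 2.76-fold range (2.08-fold without both samples numbered 1). Its levels were 1078, 1216 and 2539 CPM in sg-MIAT 1, 2 and 3 and 2977, 1445 and 1246 CPM in sg-U6 1, 2 and 3. A control was again highest and sg-MIAT 3 second, and the remaining 4 samples lay within 1078 to 1445 CPM. The edgeR log2 fold change was -0.23 ± 0.47 (SE) at an adjusted edgeR p of 0.9995.

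Il6, the cytokine that signals through gp130 and STAT3, stood at 45.8, 89.2 and 197.1 CPM in sg-MIAT 1, 2 and 3 and at 224.6, 79.9 and 138.9 CPM in sg-U6 1, 2 and 3. Each group held a sample at or above 197.1 CPM and one at or below 79.9 CPM. The high control and the low sg-MIAT sample were those numbered 1. The range of Il6 was 4.90-fold, and 2.46-fold without both samples numbered 1. Group means were 110.7 ± 77.9 CPM in sg-MIAT and 147.8 ± 72.7 CPM in sg-U6 (SD, n = 3 each). The edgeR log2 fold change was -0.42 ± 0.59 (SE) at an adjusted edgeR p of 0.9995.

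The 4 genes Il6, Ccl2, Cxcl1 and Ptgs2 shared an order that did not follow the guide. In each of them sg-U6 1 was highest and sg-MIAT 3 second, an order held by 3.74% of the 12044 genes, with sg-U6 1 highest in 26.4%. This order was chosen after the values were seen. Icam1 and Vcam1 were instead highest in sg-MIAT 3. Without both samples numbered 1, or without sg-U6 1 alone, each of the 6 genes was highest in sg-MIAT 3, so the distinction between the 4 and the adhesion molecules rested on sg-U6 1. Likeness was measured as the root mean square difference between 2 genes over the 6 samples, on log2 CPM centred on each gene's mean. Of the 12043 other tested genes, Cxcl1 was the closest to Ptgs2, at 0.488, where the median gene lay at 1.78. From Cxcl1, 1 gene lay closer than Ptgs2, but its identifier is not paired with a name here. The closest of the 6 to Il6 was Ccl2, at 0.432, with 19 other genes closer still, and from Ccl2 490 genes lay closer than Il6. Vcam1 lay farthest from the rest: its closest member was Icam1 at 1.00, and 4893 genes were closer, near the median of 1.03. Icam1 lay 0.455 from Ccl2, with 5301 genes closer, near the median gene at 0.487. Leaving out sg-U6 1 alone brought Icam1 to 0.207 from Ccl2, with 191 genes closer to Icam1 and 23 closer to Ccl2. That distance was 0.222 without both samples numbered 1, with 940 genes closer to Icam1 and 101 closer to Ccl2. In both subsets the closest member to Ccl2 was Icam1, where it was Il6 with all samples. Without both samples numbered 1, Cxcl1 and Ptgs2 lay 0.454 apart, with 219 genes closer to Ptgs2 and 13 closer to Cxcl1, so Cxcl1 was then not the closest gene to Ptgs2. The closest member to Vcam1 was then Il6, at 0.833, with 568 genes closer. These distances describe samples that also share other variation, and they carry no test.

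**Figure D2:**
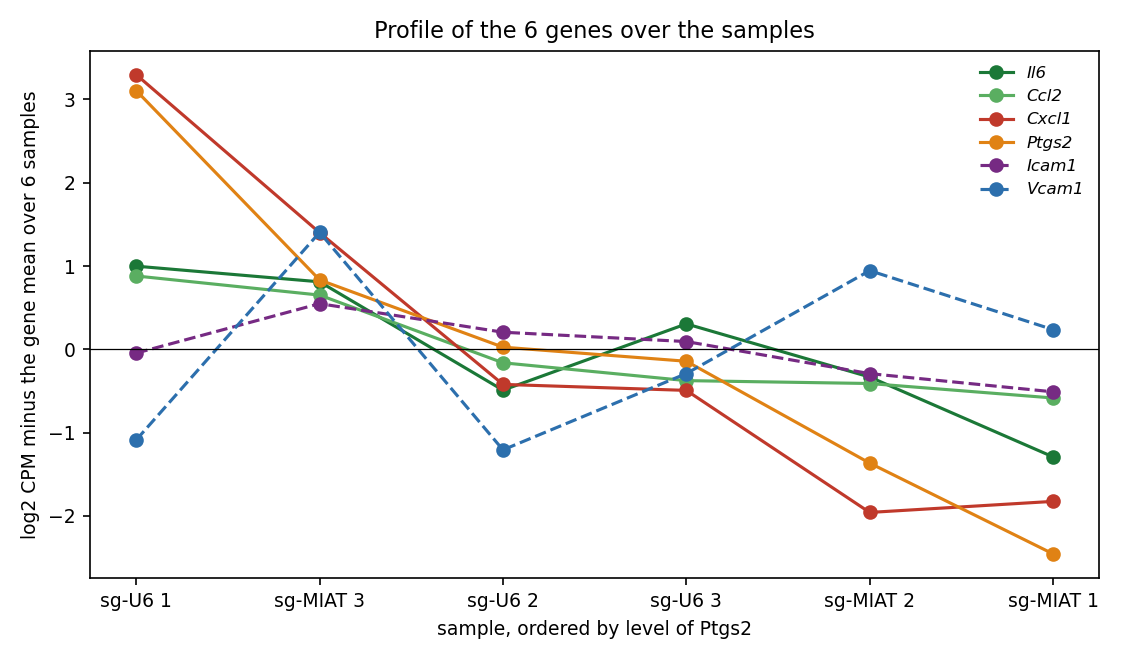
Log2 CPM of each gene minus its mean over the 6 samples, with the samples ordered by the level of Ptgs2; each line is 1 gene, and dashed lines are the adhesion molecules. Cxcl1 and Ptgs2 run together, 0.488 apart on average (root mean square), the 4 genes drawn with solid lines peak in sg-U6 1, and Vcam1 lies below its mean in all 3 sg-U6 samples.

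Samples of the same number showed how unevenly the guides differed. In the samples numbered 1, sg-U6 exceeded sg-MIAT 34.9-fold for Cxcl1 and 48.0-fold for Ptgs2, differences larger in size than those of 99.9% of genes in that pair. Il6 was 4.90-fold and Ccl2 2.76-fold higher in sg-U6 1 than in sg-MIAT 1. These are the same libraries whose levels over all genes correlated at r = 0.964, across genes, which are not independent replicates. In the samples numbered 3 the direction was the opposite, with Cxcl1 3.72-fold, Ptgs2 1.97-fold, Ccl2 2.04-fold and Il6 1.42-fold higher in sg-MIAT. In the samples numbered 2, Cxcl1 was 2.91-fold, Ptgs2 2.64-fold and Ccl2 1.19-fold higher in sg-U6, while Il6 was 1.12-fold higher in sg-MIAT. Icam1 was 1.38- and 1.41-fold higher in sg-U6 for numbers 1 and 2, and 1.37-fold higher in sg-MIAT for number 3. Vcam1 was higher in sg-MIAT in all 3 pairs, by 2.51-, 4.46- and 3.24-fold for numbers 1, 2 and 3. Every pair was higher in sg-MIAT for 15.4% of tested genes. For 10 genes (0.083%), Vcam1 included, each pair was higher in sg-MIAT by at least the smallest difference of Vcam1. That cut was the value of Vcam1 itself, and the labels state no pairing.

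**Figure D3:**
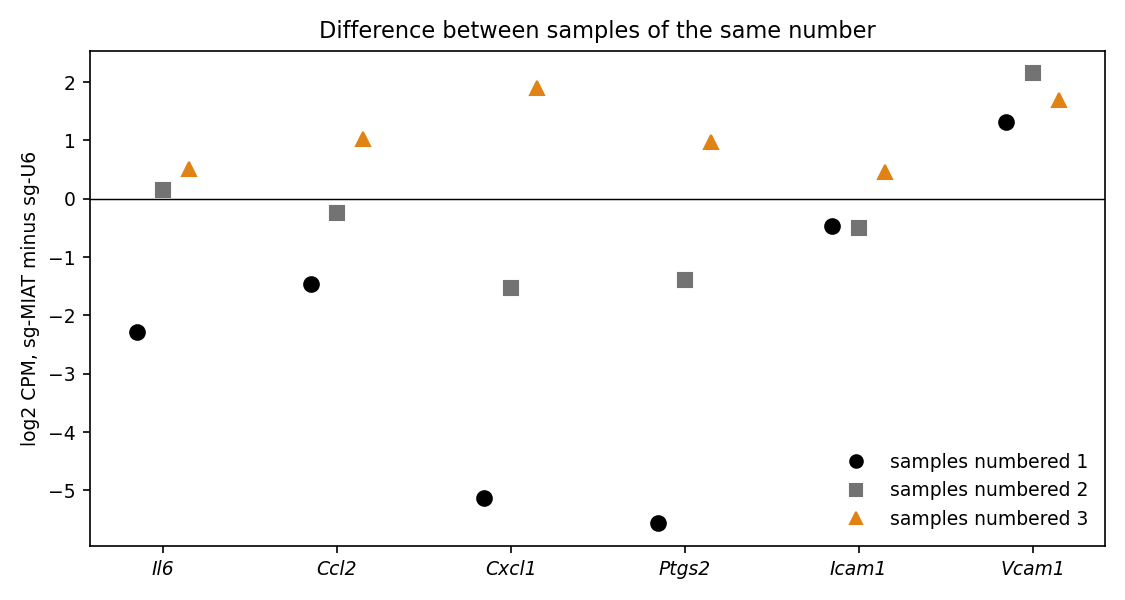
Difference in log2 CPM, sg-MIAT minus sg-U6, between samples of the same number; circles, squares and triangles are numbers 1, 2 and 3. For Cxcl1 and Ptgs2 the points run from below -5 for number 1 to above 0 for number 3, whereas all 3 Vcam1 points lie above 0.

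The fitted direction of Il6, Ccl2, Cxcl1 and Icam1 turned when a single library was left out, and that of Ptgs2 when both samples numbered 1 were. Without sg-U6 1, the edgeR log2 fold changes of Il6, Ccl2 and Cxcl1 turned to 0.024, 0.27 and 0.55, and that of Ptgs2 shrank to -0.29. Without both samples numbered 1, all 5 had edgeR log2 fold changes above 0: 0.39 for Il6, 0.48 for Ccl2, 0.99 for Cxcl1, 0.18 for Ptgs2 and 0.042 for Icam1. Without sg-MIAT 3, those of Cxcl1 and Ptgs2 were -3.80 and -3.63. In that subset the groups did not overlap for 5 of the 6, where 20.3% of genes did not. Vcam1 was higher, and Ccl2, Cxcl1, Ptgs2 and Icam1 were each lower in both remaining sg-MIAT samples than in every control, as were 10.4% of tested genes. In that fit DESeq2 called Cxcl1 and Ptgs2, with adjusted DESeq2 p-values of 0.0336 and 0.0248, among 171 genes (1.27%), and edgeR called neither, at 0.874 and 0.816. Vcam1 kept its direction in every fit run.

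**Figure D4:**
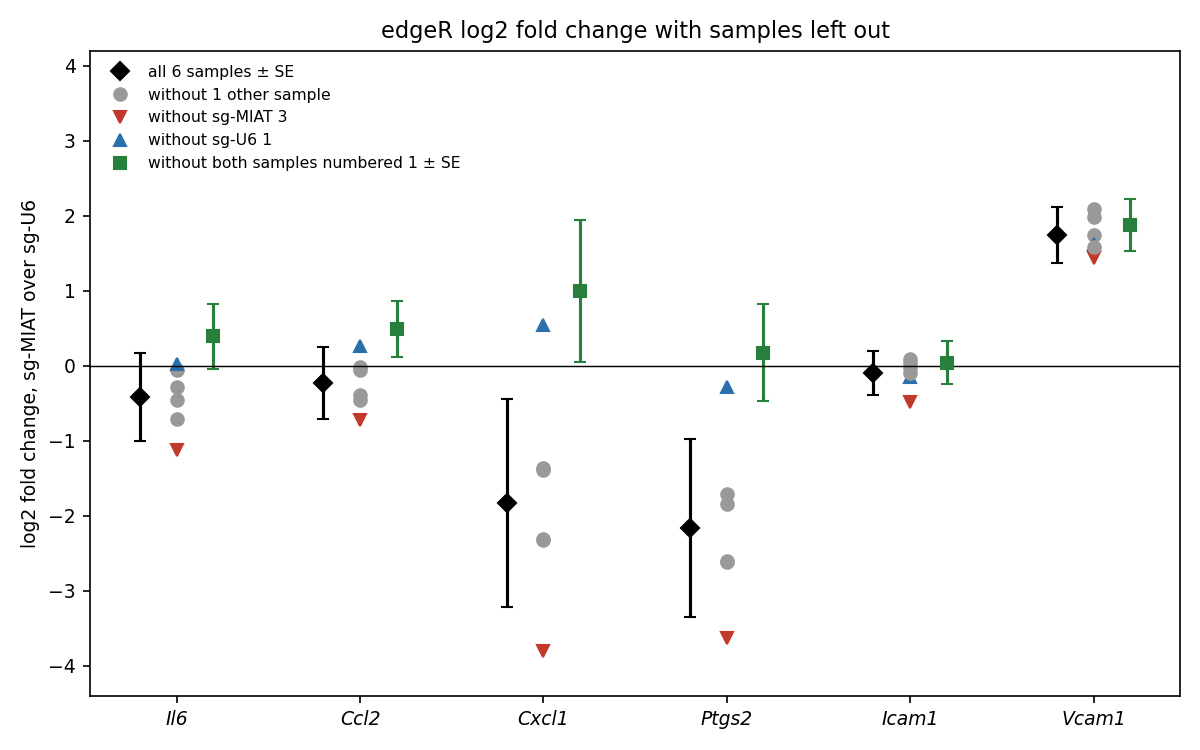
Log2 fold change from edgeR (sg-MIAT over sg-U6) with all 6 samples, with each sample left out in turn, and without both samples numbered 1; bars are SE. Vcam1 stays between 1.44 and 2.09, while Cxcl1 runs from -3.80 without sg-MIAT 3 to 0.99 without both samples numbered 1.

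As a group, 5 of the 6 genes had a fitted level lower in sg-MIAT, a direction shared by 54.6% of tested genes. The median log2 fold change of the 6 was -0.32, against -0.029 over all tested genes. Both turned with the libraries: without sg-U6 1, 2 of the 6 were lower and their median was 0.15, and without both samples numbered 1, 0 of the 6 were lower, with a median of 0.44, where 49.3% of genes were lower. With all samples, their median SE was 0.53 and that of all tested genes 0.30, and their median fold from lowest to highest sample was 5.52 against 2.00. Other cytokines, NF-κB subunits and inhibitors, listed by name for this comparison, could not be paired with identifiers and were not analysed here.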

How the data were processed

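RNA of 6 samples of rat vascular smooth muscle cells was selected on poly(A) tails, made into dUTP-stranded libraries and read as paired ends, per the labels' protocols. The authors deposited raw counts per Ensembl gene identifier, 1 column per sample. HISAT2, DESeq2 and the build Rnor_6.0 are named, per the submitters' processing notes, without roles. Nothing used here names the read counter or says whether it used the strand, so the assignment of reads from overlapping or antisense genes is uncertain. A second table of the same genes and samples was not used.

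The members and lists were chosen with earlier results of these data known. The text names all 6 members, and a gene of likest profile only where its identifier has a name. The main test was edgeR 4.0.16 (R 4.3.3), quasi-likelihood, on all counts with TMM scaling, its filter on low counts (minimum 10, minimum total 15) and the guide as the only term. An edgeR SE is the absolute log2 fold change over the root of its F statistic. Log2 CPM used a prior count of 2. Alternatives were other scalings, no filter, DESeq2 1.42.0, limma-voom (limma 3.58.1), a replicate block and samples left out. No 2 libraries were duplicates (chi-square per degree of freedom at least 20.8).

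Both groups are numbered 1 to 3. Deviations from the group mean, compared between samples of 1 number, correlated across genes at 0.730, 0.126 and 0.335, each above 0.1, so the numbers were taken to pair samples in the block, although the labels state no pairing and 2 of the 3 sg-MIAT samples correlated more with a control of another number (0.630 for sg-MIAT 2 with sg-U6 3, 0.337 for sg-MIAT 3 with sg-U6 2). Gene names are those given with the chosen identifiers.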

Additional observations from a re-analysis of the deposited data

How the results depend on the processing

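Vcam1 kept its direction under each alternative run, and none of the 6 genes passed an adjusted p under 0.05 in any edgeR or limma-voom fit. With both samples numbered 1 left out, edgeR gave log2 fold changes of 0.392 for Il6, 0.484 for Ccl2, 0.994 for Cxcl1, 0.176 for Ptgs2 and 0.0423 for Icam1. DESeq2 on the same 4 samples gave 0.393, 0.486, 0.994, 0.177 and 0.0443, and it called Vcam1 (1.88), 1 of the 6, among 119 genes (0.918%). On all samples DESeq2 called Vcam1 (1.745), 1 of the 4 members to which it gave an adjusted p, among 60 genes (0.438%). With its filter on Cook's distance off, an alternative chosen after seeing the data, it called Vcam1, 1 of the 6, among 61 genes. With the replicate block DESeq2 called Vcam1 (1.733), 1 of the 6, among 130 genes (0.998%), and the block changed no call of the 6 genes. At an unadjusted p under 0.05, edgeR placed 1 of the 6 and 477 genes in all. Leaving out 1 sample at a time, in edgeR and DESeq2, gave log2 fold changes from -1.128 to 0.0244 for Il6, -0.718 to 0.267 for Ccl2, -3.803 to 0.547 for Cxcl1, -3.631 to -0.286 for Ptgs2, -0.483 to 0.0965 for Icam1 and 1.441 to 2.096 for Vcam1. It gave 0 to 2 of the 6 called and 0 to 218 genes called in all (in DESeq2, 0.0718% to 1.75%). Groups did not overlap for 5 of the 6 without sg-MIAT 3, where 20.3% of genes did not, and for 1 of the 6, Vcam1, in each of the other 5 subsets, where 12.8% to 38.2% of genes did not. The cause of these changes was not tested. Every count of the 6 genes was at least 101, so counting error was small beside the spread between samples of a group.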
